A study of Rattus norvegicus with 100 samples.

Results

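The genes described here drive DNA replication and mitosis. They form a list of 37 genes, and a member was kept where the array carried a probe set assigned to that gene alone with deposited values. This held for 32 of the 37 genes, out of 9030 genes measured in this way. Rrm2 and Hmgb2 were carried only by probe sets shared with other genes, and Ccna2, Kif11 and Prc1 were not listed on a probe set, so these 5 were not analysed here.

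The samples came from a uterotrophic assay in immature female rats, which reads estrogenic activity from growth of the uterus. Treated rats received ethinylestradiol (EE), the synthetic estrogen of many oral contraceptives, and every EE group had a control group at the same time. In uterus there were 5 EE and 5 control arrays at each of 2, 4, 8, 24, 28, 48 and 72 h, and in pituitary gland 3 EE and 3 control arrays at each of 4, 8, 24, 48 and 72 h. The labels give no dose, route or schedule of treatment and name no vehicle for the controls. They do not say that each array stands for a separate animal, so each p-value covers only the spread among these samples, which may be technical. Single arrays are called here by the number in their titles.

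Before a cell divides, the Mcm2 to Mcm7 helicase is loaded on DNA and unwinds it, primase and the Pcna clamp serve the copying of both strands, and enzymes such as Tk1, Tyms and ribonucleotide reductase supply nucleotides. Entry into mitosis is driven by Cdk1 with B-type cyclins, and the spindle, the chromosomal passenger complex and the anaphase-promoting complex then separate the chromosomes. Many of these genes are expressed in dividing cells and little in resting ones, and estrogen is a classical stimulus of cell division in the immature rat uterus.

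Values are linear intensities from RAE230A arrays, and 37.2% of all cells in the deposited table were blank. Uterus arrays held 9338 to 10677 values with medians of 94.6 to 108, and pituitary arrays 9318 to 10135 values with medians of 103 to 110. The number of arrays limits the precision. Control uterus arrays all carried Hoxa10, Hoxa11 and Emx2, and control pituitary arrays none of them. All control pituitary arrays carried Gh1, Prl, Cga and Pou1f1, and no control uterus array did, while Pomc, the hormone gene of corticotrophs, had a value on 1 of 15 control pituitary arrays. Differences are given as log2(value + 30.4) of EE minus control with a standard error, a scale that understates the change of low genes. The threshold for passing was a limma p under 0.05 after adjustment over all genes tested in that comparison. A gene was tested where each uterus group had at least 3 of 5 values and each pituitary group at least 2 of 3. Of the 32 members, 18 had a value on every uterus array and 18 on every pituitary array, and Plk1, Bub1b, Birc5 and Fen1 had no value on any pituitary array.

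In uterus no member passed at 2 h, 11 were lower and 2 higher with EE at 8 h, and all tested members or nearly all were higher from 24 h on. At 2 h, 28 members were tested with limma and 0 passed, and 0 reached an unadjusted p under 0.05, while 6.39% of all genes tested passed in either direction. The median difference was -0.05 over the members and -0.02 over all genes.

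At 4 h the first member to rise was Pcna, the sliding clamp of DNA polymerases. Its EE arrays read 575, 596, 752, 705 and 495, and its control arrays 435, 503, 429, 394 and 554. The EE values were mostly above the control values, but the groups overlapped. The difference was 0.40 ± 0.11 (adjusted p = 0.00171), and Pcna was the only riser among 27 members tested, against 23.6% of all genes. Stmn1, which destabilises microtubules, fell by 0.54 on the log2 scale (adjusted p = 0.0045), and Lig1, which joins lagging-strand fragments, fell by 0.22 (adjusted p = 0.0449). Stmn1 read 412, 364, 577, 641 and 416 with EE and 775, 847, 659, 512 and 749 in controls, again with overlap. Lower calls were made for 34.5% of all genes.

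The count of lower members at 4 h changed when single arrays were left out. It was 9 without control array 17, 8 without EE array 21 and 4 without EE array 23. It was 1 without EE array 19, 20 or 24 or control array 14, 15 or 18, each of which cost the call of Lig1 and left that of Stmn1. Over 7 mitotic members with a value on every uterus array, EE arrays 21 and 23 lay 0.48 and 0.36 above their group mean on the log2 scale, and control array 17 lay 0.43 below its own.

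At 8 h most of the calls were lower, and most of these were mitosis members. Of 28 members tested, 11 were lower with EE (35.5% of all genes were), 2 were higher (28.7% of all genes), and the members' median was -0.27 against -0.04 over all genes. The share of lower members was thus near that of all genes. The 11 were Stmn1, Top2a, Mki67, Cdkn3, Ccnb2, Racgap1, Cdk1, Cks2, Lig1, Tk1 and Aurkb. Among them 4 of the 5 members of the Cdk1 module, both of the chromatin members and 2 of 4 spindle members were lower, whereas 0 of 6 helicase subunits were.

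Stmn1 gave the largest fall among the members. Its values were 309, 369, 415, 212 and 354 with EE and 782, 537, 868, 608 and 831 in controls. Every EE array was below every control array, which held for no other of the 11, and the difference was -1.07 ± 0.17 (adjusted p = 9.01e-08). Top2a, the topoisomerase that untangles sister chromatids, read 125, 79.6, 133, 47.4 and 92.4 with EE against 216, 121, 205, 149 and 246. Cdk1, the mitotic kinase, read 120, 116, 137, 66.7 and 91.6 against 182, 116, 212, 116 and 215. In both, the EE arrays were mostly lower, control array 27 lay within the EE range, and EE array 34 was the lowest of all. For Cdk1, control array 29 lay within the EE range too. The differences were -0.81 ± 0.21 for Top2a (adjusted p = 5.2e-04) and -0.53 ± 0.16 for Cdk1 (adjusted p = 0.00253). A second probe set of Top2a, tested by itself, fell by 0.84 (adjusted p = 4.79e-04).

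The helicase subunits Mcm5 and Mcm6 were higher at the same time. Mcm6 read 180, 201, 169, 157 and 172 with EE and 180, 102, 134, 120 and 131 in controls, and Mcm5 read 65.6, 89.8, 83, 93.9 and 79.3 against 77.5, 51.4, 67.3, 51.8 and 62.6. The EE arrays were mostly higher, but 1 control array of Mcm6 and 2 of Mcm5 reached into the EE range. The differences were 0.35 ± 0.13 (adjusted p = 0.0209) and 0.29 ± 0.13 (adjusted p = 0.044). The count of higher members was 0 without EE array 32 or control array 27, 1 without EE array 33, 34 or 35 or control array 29, and 4 without control array 25. Of the lower calls, Tk1 (-0.34), Aurkb (-0.30) and Cks2 (-0.53) each had an adjusted p above 0.05 without EE array 34 or without control array 28 or 30, with differences of -0.41 to -0.24. Tk1 was also lost without EE array 35 or control array 25 (-0.31 and -0.29), and Aurkb without control array 25 (-0.26).

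Other measures moved with EE at 8 h. The summed level of 8 stroma markers was 10643 to 11588 on EE arrays and 13390 to 15676 on control arrays, with 0 higher and 5 lower. Of 9 uterine epithelium markers tested, 5 were higher and 2 lower, and the sum of the 5 that enter it was 2365 to 2543 against 1436 to 2107. The Actb 3′ to 5′ log2 difference, a measure of RNA integrity, was 0.07 to 0.30 on EE and 0.36 to 0.67 on control arrays, and 36.9% to 39.1% against 33.7% to 35.8% of cells were blank. Their part in the result was not tested. In whole tissue, fewer cells of a type and less RNA per cell cannot be told apart.

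**Figure D1:**
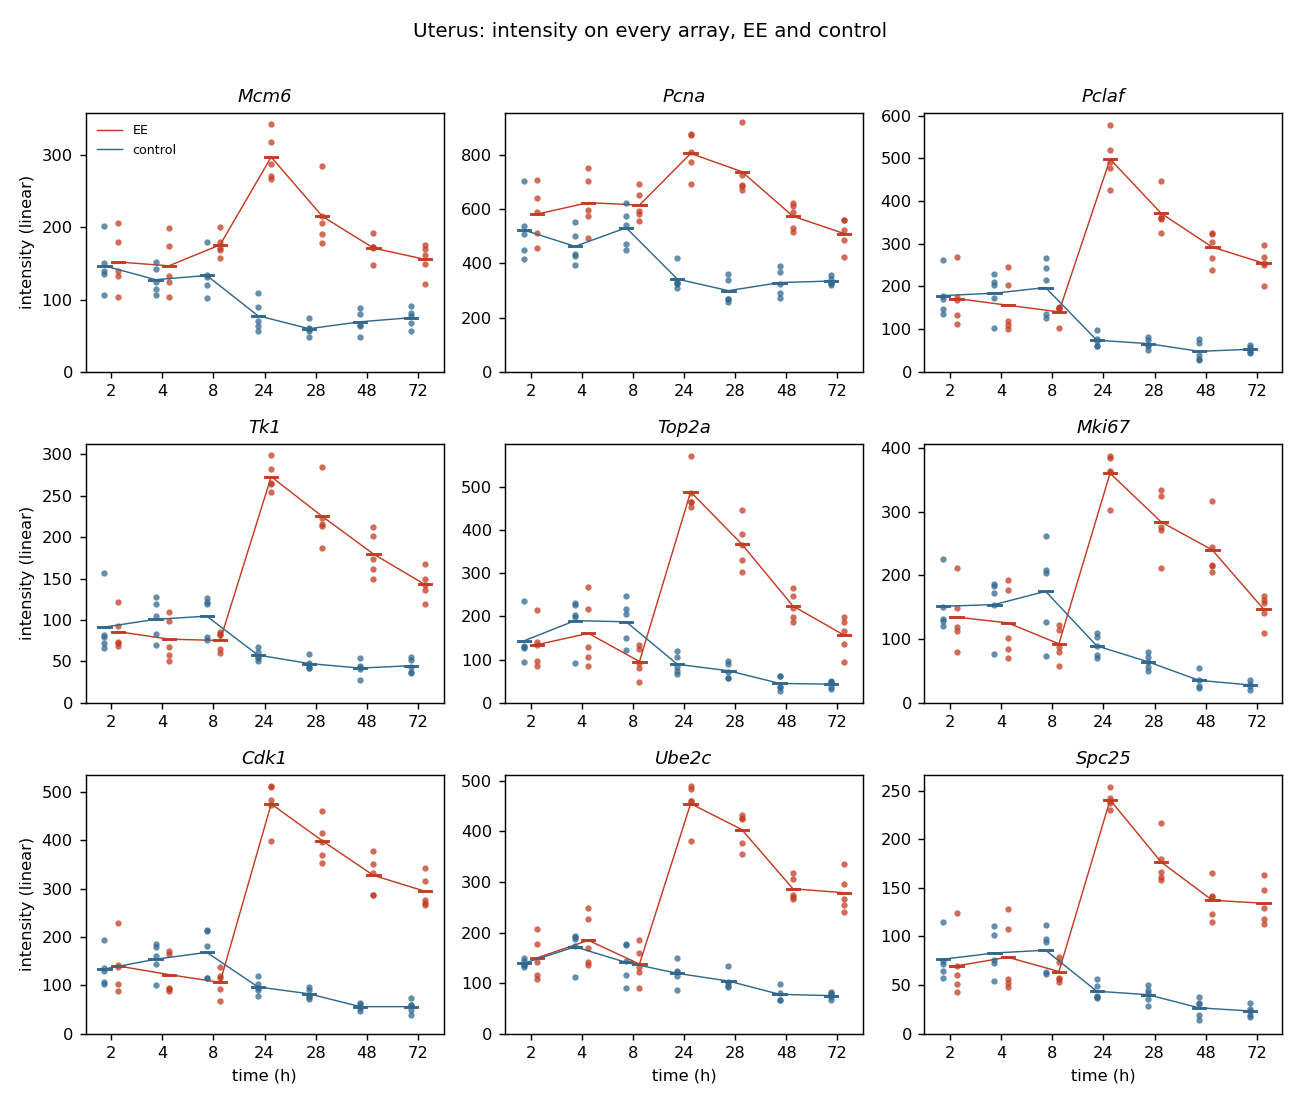
Levels of 9 members in uterus (linear intensity, vertical axes starting at 0) at 2 to 72 h, with the times evenly spaced and so not to scale. Each point is 1 array, short bars are group means and lines join the means. EE means of Top2a, Mki67 and Cdk1 lie below the control means at 8 h, and all EE arrays lie above all control arrays at 24 h.

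At 24 h all 25 tested members were higher with EE, against 24.8% of all genes. For each of these members every EE array was above every control array. How many of all genes were so separated was not counted. The members' median was 1.62 and that of all genes -0.06. The differences ran from 0.56 for Mcm7 to 2.35 for Pclaf. Among the helicase subunits, the median of 1.01 was the lowest of the 7 roles, and it was 1.95 in the Cdk1 module, which had the highest.

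At the replication fork, Pclaf, a small protein that binds the Pcna clamp, showed the largest difference of all members. Its EE arrays read 520, 425, 477, 491 and 579, and its control arrays 96.8, 61.1, 61.4, 72.0 and 77.6. The EE arrays were all far above the controls, and the difference was 2.35 ± 0.18 (adjusted p = 1.64e-17). Pcna read 874, 692, 813, 774 and 878 against 419, 327, 310, 323 and 332. Here too the groups were far apart, although control array 37 was high, and the difference was 1.17 ± 0.11 (adjusted p = 1e-13). Prim1, the catalytic subunit of primase, and Lig1 differed by 1.0 and 0.84.

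Mcm6 showed the largest difference among the tested helicase subunits. It read 318, 267, 271, 288 and 344 with EE and 109, 63.7, 69.7, 56.8 and 89.2 in controls. No EE array came near the control range, and the difference was 1.62 ± 0.13 (adjusted p = 4.57e-16). Mcm3, Mcm2, Mcm4 and Mcm7 followed with 1.14, 1.01, 0.95 and 0.56. Mcm5 had values on too few control arrays at 24 h to be tested. For nucleotide supply, Tk1, the thymidine kinase of the salvage route, read 299, 264, 265, 255 and 282 against 61.5, 53.7, 50.2, 55.4 and 67.3. These groups were also fully apart, with a difference of 1.79 ± 0.14 (adjusted p = 1.94e-17). Rrm1, the large subunit of ribonucleotide reductase, differed by 0.85.

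In the Cdk1 module, Cdk1 read 511, 399, 472, 482 and 510 with EE and 119, 78.1, 91.3, 102 and 94.0 in controls. Cks2, a small subunit that binds Cdk1, read 635, 606, 653, 688 and 653 against 145, 105, 94.5, 116 and 98.8. EE arrays of both were tight and far above controls, by 1.99 ± 0.16 (adjusted p = 5.13e-17) and 2.26 ± 0.18 (adjusted p = 1.07e-16). The phosphatase Cdkn3 and the cyclins Ccnb1 and Ccnb2 differed by 1.95, 1.74 and 1.49.

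Members that act later in mitosis rose as well. Spc25, a subunit of the kinetochore's Ndc80 complex, read 230, 242, 239, 237 and 254 with EE and 56.7, 38.3, 38.4, 49 and 36.4 in controls. Ube2c, the ubiquitin-conjugating enzyme of the anaphase-promoting complex, read 490, 381, 483, 459 and 460 against 125, 123, 86.0, 149 and 114. Neither pair of groups overlapped, and the differences were 1.88 ± 0.15 (adjusted p = 2.92e-16) and 1.70 ± 0.14 (adjusted p = 1.61e-16). Top2a read 572, 465, 454, 465 and 485 against 119, 72.8, 66.9, 81.6 and 105, and Mki67, the antigen used to stain dividing cells, read 364, 385, 302, 388 and 363 against 104, 69.5, 75.5, 88.4 and 109. Both had passed as lower at 8 h, and here every EE array was above every control array, with differences of 2.13 ± 0.21 (adjusted p = 1.14e-13) and 1.71 ± 0.20 (adjusted p = 6.99e-11). Racgap1, which acts in cytokinesis, Tacc3 of the spindle, the anaphase activator Cdc20, the passenger kinase Aurkb and Stmn1 differed by 1.81, 1.72, 1.42, 1.36 and 1.13.

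Of the 7 untested members at 24 h, 4 had a value on all EE arrays and on no control array, which held for 0.808% of all 9030 genes. Plk1, a mitotic kinase, read 140, 118, 143, 144 and 198 with EE, and Birc5, a passenger subunit, 158, 263, 216, 197 and 173. Bub1b of the spindle checkpoint read 107, 117, 92.3, 98.2 and 94.5, and Tyms, thymidylate synthase, 38.9, 38.5, 35.6, 46.5 and 45.4. All of their control values were blank, so no fold is given. The same presence on EE arrays alone held for Plk1, Bub1b, Birc5 and Rfc4 at 28 h (0.875% of all genes), where Rfc4, a clamp loader subunit, read 107, 114, 141, 106 and 106. It held for Plk1, Bub1b, Birc5 and Tacc3 at 48 h (0.642%) and for Tacc3 at 72 h (0.764%). Over all times, Plk1 had a value on 20 of 35 EE and 0 of 35 control uterus arrays, and Fen1, the flap nuclease of the lagging strand, on 6 and 0.

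Tk1, Ccnb1, Cdc20 and Top2a had more than 1 probe set. The other sets described here were higher with EE at 24 h or had values on EE arrays alone. Of the 4 other sets of Cdc20, 1 is described, in uterus alone, so whether its sets agree is not shown here. Other probe sets of Tk1 and Ccnb1, with means of 199 and 204 on EE arrays at 24 h, had values on 5 EE and 0 control arrays at 24, 28 and 48 h, and a second set of Cdc20 (316) did the same. The second set of Top2a differed by 1.92 at 24 h (adjusted p = 1.33e-11).

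The genes outside the members moved in the same directions in part. Of 46 other replication genes listed, 25 were tested at 24 h, of which 19 were higher and 1 lower, with a median of 0.71. The 3 with the smallest adjusted p were Dut (1.43 ± 0.11), which clears dUTP, and Rfc3 (1.24 ± 0.11) and Rpa3 (1.18 ± 0.10) of the clamp loader and the single-strand binding protein. The 1 lower was Orc4, an origin recognition subunit (-0.66 ± 0.09), named after its value was seen. Of 63 other mitosis genes, 23 were tested, 21 were higher and 0 lower, with a median of 1.31. Espl1, the separase (1.66 ± 0.12), Kif22, a chromosome-arm kinesin (1.74 ± 0.13), and Cdc25b, a Cdk1-activating phosphatase (1.06 ± 0.08), had the smallest adjusted p. At 8 h the counts were 4 higher and 9 lower of 26 tested for replication, and 1 higher and 12 lower of 21 for mitosis.

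**Figure D2:**
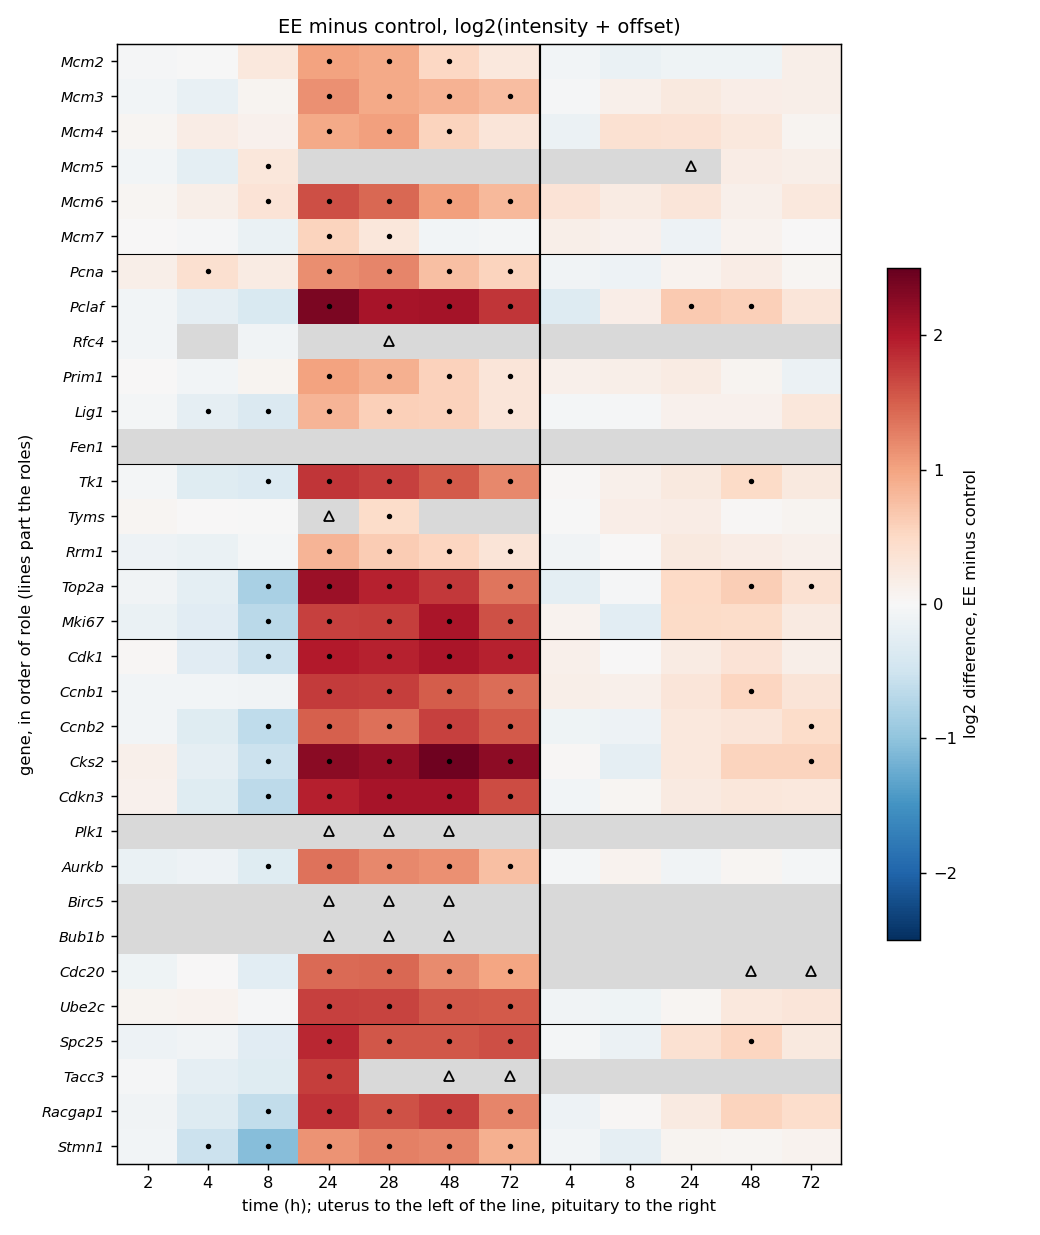
Log2(value + 30.4) of EE minus control for the 32 members (rows, by role) in the 7 uterus and 5 pituitary comparisons (columns), as colour. Dots mark members that passed, grey cells were not tested and triangles mark values on all EE arrays and no control array. Dots mark 11 lower and 2 higher members in the uterus column at 8 h and all 25 tested, all higher, at 24 h, and the pituitary columns hold 9 dots in all.

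Promoter sequences of the members were searched for 3 kinds of motif. RefSeq sequences of build GRCr8 were matched for 28 of 32 members, and the 250 bases before each start were searched on both strands for E2F motifs (TTGGCGC or TTCCCGC or TTCGCGC or TTGCCGC), for the cell cycle homology region CHR (TTTGAA) and for CCAAT. E2F matches on opposite strands can share bases. A match is only a run of letters. As background, E2F and Rb-family proteins act on replication genes, and in human and mouse cells the CHR and CCAAT elements carry much of the cell cycle control of mitotic genes.

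An E2F match was present in 9 of 14 replication members (64.3%) and 4 of 14 mitosis members (28.6%), counting Top2a and Mki67 with mitosis, against 7.59% of 33469 promoters of all genes. A CHR match was present in 1 (7.14%) and 10 (71.4%), against 16.2% of all promoters. CCAAT was present in 7 and 13 (92.9%), against 34%. CHR and CCAAT together occurred in 0 replication members and 10 mitosis members, against 5.87% of all promoters. The 120 bases before the start are shown for the 6 members that best display these classes, with E2F, CHR and CCAAT matches in capitals and each written 5′ to 3′ on the strand of the gene. Mcm6 (chr13:42404353-42404472, minus strand) and Pclaf (chr8:75315597-75315716, plus strand) carry E2F and CCAAT matches without CHR. Cdk1 (chr20:19265173-19265292, plus), Ccnb2 (chr8:79981659-79981778, minus), Cks2 (chr17:13727520-13727639, minus) and Spc25 (chr3:74396719-74396838, minus) carry CHR near CCAAT. Ccnb2 has an E2F match in the stretch shown and Cdk1 has 2 E2F matches before it. Starts are those of the RefSeq promoter table. The stretch of Pclaf lies wholly inside the annotated span of its gene, and those of Cdk1, Ccnb2 and Spc25 overlap theirs.
Mcm6: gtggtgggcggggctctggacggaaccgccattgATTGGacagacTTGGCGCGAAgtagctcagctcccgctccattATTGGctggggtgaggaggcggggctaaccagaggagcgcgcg
Pclaf: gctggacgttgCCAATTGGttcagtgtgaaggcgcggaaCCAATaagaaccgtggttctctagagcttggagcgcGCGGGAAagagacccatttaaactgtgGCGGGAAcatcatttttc
Cdk1: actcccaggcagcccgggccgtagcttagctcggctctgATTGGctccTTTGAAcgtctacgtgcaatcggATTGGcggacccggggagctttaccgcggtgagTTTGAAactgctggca
Ccnb2: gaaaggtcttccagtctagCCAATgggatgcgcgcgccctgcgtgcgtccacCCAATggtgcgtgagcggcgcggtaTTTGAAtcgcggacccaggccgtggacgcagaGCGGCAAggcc
Cks2: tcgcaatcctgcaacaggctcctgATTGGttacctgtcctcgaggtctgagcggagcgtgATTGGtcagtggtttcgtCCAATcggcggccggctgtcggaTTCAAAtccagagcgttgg
Spc25: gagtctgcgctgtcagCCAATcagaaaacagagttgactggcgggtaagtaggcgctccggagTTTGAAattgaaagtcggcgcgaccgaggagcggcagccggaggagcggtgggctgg

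The EE differences by promoter class are a description of the members above. The 10 members with CHR and CCAAT had a median of -0.53 at 8 h (0 higher and 6 lower of 9 tested), 1.88 at 24 h and 1.6 at 72 h, with all 8 tested members higher at 72 h. The 9 members with E2F and without CHR had a median of -0.07 at 8 h (2 higher and 1 lower of 8), 1.13 at 24 h over 5 tested and 0.82 at 72 h. Mcm6 and Pclaf, both with E2F and no CHR, differed at 8 h by 0.35 and by -0.38, the latter without passing (adjusted p = 0.0575).

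Genes for proteins that bind these elements were measured in part, with values for 13 of 22 listed. At 2 h 2 of 11 tested in uterus were higher (6.39% of all genes passed in either direction). At 4 h 4 were higher and 2 lower of 11 (23.6% and 34.5% of all genes), and at 8 h 4 and 2 of 9 (28.7% and 35.5%). The share passing at 4 and 8 h was thus near that of all genes. E2f6 and Rb1 passed at no uterus time, and Rb1 was untested at 8 and 72 h. In uterus Rbl2, the Rb-family protein p130 of resting cells, was lower with EE from 4 to 72 h, with differences of -0.93 ± 0.07 at 4 h and -1.26 ± 0.07 at 8 h (adjusted p = 1.62e-24), where its mean was 34.9 with EE and 127 in controls. At 24, 28, 48 and 72 h it differed by -0.49, -0.85, -0.30 and -0.38. In pituitary Rbl2 was higher at 8 h (0.44, adjusted p = 0.0228) and did not pass at another time. The values that follow are again from uterus. Tfdp1, the E2F partner, was higher at 4, 8, 24 and 28 h by 0.64, 0.61, 0.39 and 0.41, and E2f4 by 0.44, 0.58, 0.17 and 0.43. Nfya, a subunit that binds CCAAT, was higher at 2, 4, 8 and 28 h by 0.35, 0.47, 0.48 and 0.24 and lower at 48 and 72 h (-0.39 and -0.58). E2f5 was higher at 2, 4 and 8 h by 0.27, 0.55 and 0.35 and lower at 48 and 72 h (-0.16 and -0.36). Mybl2 and E2f8 were higher at 24 h by 0.88 and 0.67, and E2f8 at 28 h by 0.31. At later times blanks on control arrays left them untested. Mybl2 had values on 5 EE arrays and no control array at 28 and 72 h. Both genes had values on 5 EE arrays and 1 control array at 48 h, as had E2f8 at 72 h. Foxm1, an activator of mitotic genes, had values on 5 EE arrays and no control array at 24 h, on 3 and 0 at 28 h, and on no array at 2, 4 or 8 h. Lin37 was lower at 4, 8 and 28 h (-0.47, -0.52 and -0.53), and Nfyc at 24 and 72 h (-0.22 and -0.30).

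Control levels were not steady, so EE and control arrays are described apart. From 8 to 24 h, 27 of 28 members rose on the EE arrays (28.6% of all genes did), and Mcm2, with 0.15, did not pass. On the control arrays over the same time 12 of 25 members fell (1.18% of all genes) and 0 rose. Pclaf, with -1.09 ± 0.18 (adjusted p = 1.08e-04), and Top2a, with -0.85 ± 0.21 (adjusted p = 0.0167), gave the largest falls. The change in EE effect itself passed in 25 of 25 members, all upward (23.6% of all genes), from 0.72 ± 0.15 for Mcm7 to 2.94 ± 0.29 for Top2a. The count of falling control members was 4 without control array 25 and 5 without control array 30 at 8 h, 6 without control array 38 or 39 and 7 without control array 42 at 24 h.

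Of the 24 members tested at all uterus times, the highest EE mean lay at 24 h in 23 and at 28 h in 1. The highest control mean lay at 2 h in 6, at 4 h in 6 and at 8 h in 12. The lowest control mean lay at 28 h in 8, at 48 h in 6 and at 72 h in 10. Limma's F test across control times passed in 24 of 24 members, against 32.6% of all genes, and the test across EE effects in 24 of 24, against 81.6%. The EE difference was largest at 24 h in 15 members, at 28 h in 5 and at 48 h in 4. Cks2 was one of the last, with 376, 450, 293, 429 and 370 on EE arrays and 60.5, 48.8, 38.8, 64.2 and 23.9 on control arrays at 48 h. Both groups were lower than at 24 h, the controls more so, and the difference was 2.43 ± 0.18 (adjusted p = 5.12e-18).

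At 28 h, 25 of 25 tested members were higher (28.4% of all genes), with a median of 1.44. Mcm7 was the smallest (0.28, adjusted p = 0.0182), and it was lost without EE array 57 (0.20) or control array 51 (0.24). Between 24 and 28 h the change in EE effect passed in 0 of 24 members with limma, and 0 had an unadjusted p under 0.05, whereas 8.26% of all genes changed. On the EE arrays alone 7 of 31 members fell (9.67% of all genes), among them Mcm3, Mcm5, Mcm6 and Mcm7, as well as Lig1, Rfc4 and Birc5. That count was 11 without EE array 57, which lay 0.33 above its group mean over 11 replication members, and 4 without EE array 59. On control arrays 0 of 24 passed in limma, with 1 at an unadjusted p under 0.05, against 0.0138% of all genes.

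At 48 h, 23 of 24 members were higher (24.2% of all genes), with a median of 1.37. Mcm7 did not pass, with a difference of -0.06 (adjusted p = 0.63). From 28 to 48 h, 11 of 31 members fell on EE arrays (16.4% of all genes), 7 of them without EE array 57, and Cks2 (-0.61) and Ccnb2 (-0.57) fell on control arrays (2 of 24, against 1.26% of all genes). The EE effect itself passed a change only in Pcna (-0.47), against 13.9% of all genes that fell. That count of 1 became 0 without EE array 57, or without control array 61 or 65 at 48 h, 2 without EE array 55, 56, 71 or 72 or control array 50, and 3 without control array 52 or 66. The control count of 2 became 0 or 1 without any of 9 of the 10 control arrays.

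At 72 h, 21 of 24 members were higher (23.4% of all genes), with a median of 1.09 against -0.07 over all genes. The 3 that did not pass were all helicase subunits. Mcm7 read 146, 137, 133, 184 and 141 with EE and 121, 161, 146, 164 and 172 in controls, fully overlapping, with a difference of -0.04 (adjusted p = 0.785). Mcm2 read 107, 133, 133, 128 and 102 against 95.9, 102, 97.5, 110 and 74.5 (0.26, adjusted p = 0.0906). Mcm4 read 59.3, 86.9, 86.6, 87.1 and 49.9 against 55.1, 47.5, 55.9, 56.9 and 52 (0.30, adjusted p = 0.0551). In Mcm2 and Mcm4 most EE arrays were above the controls, but 1 or more lay among them. Both passed with arrays centred on their medians (0.37 for Mcm2 and 0.41 for Mcm4), with quantile normalization or with the 2 groups alone, and Mcm4 also with no constant or without EE array 79 or 84. Mcm3 and Mcm6 remained higher, by 0.77 and 0.82, and Rrm1 by 0.33, which was lost without EE array 83 (0.25, adjusted p = 0.0607).

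By contrast, Cdk1 at 72 h read 271, 343, 267, 316 and 276 with EE and 60.2, 58.6, 49.3, 38.3 and 73.9 in controls, and Cks2 read 422, 327, 315, 437 and 307 against 49, 45.8, 52.3, 51.9 and 63. Neither pair came near overlap, and the differences were 1.92 and 2.23. From 48 to 72 h the change in EE effect passed in 0 of 24 members in limma, with 2 at an unadjusted p under 0.05 and 0.505% of all genes passing. On EE arrays 4 of 30 fell (6.71% of all genes), Mki67, Cdkn3, Plk1 and Aurkb, a count that was 0 without EE array 71, 72 or 84 and 2 without EE array 79. On control arrays 0 of 24 passed in limma, with 0 at an unadjusted p under 0.05, against 1.85% of all genes.

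The whole span from 24 to 72 h, a comparison added after the values were seen, set the 2 kinds of array side by side. On EE arrays all 30 tested members fell (23.3% of all genes), from -0.27 for Tyms to -1.50 for Top2a. On control arrays 12 of 24 fell (5.29% of all genes) and none of these was a helicase, fork or nucleotide member (0 of 11). Mki67 fell most in controls, with -1.03 ± 0.21 (adjusted p = 7.95e-04), followed by Cks2 (-0.77), Cdkn3 (-0.75) and Ccnb2 (-0.72). The EE effect fell in 11 of 24 members (18.5% of all genes), a count that was 18 with blanks filled and 17 with a constant of 100. Among them were 4 of 5 helicase subunits, 3 of 4 fork members and both nucleotide members tested, for example Mcm6 (-0.80 ± 0.19, adjusted p = 8.51e-04) and Prim1 (-0.70 ± 0.15, adjusted p = 2.45e-04). In the Cdk1 module 0 of 5 passed, with values from -0.35 to 0.04. There the EE and the control levels fell side by side, as in Cks2 (-0.80 with EE and -0.77 in controls). Of the others, Top2a (-0.81) and Aurkb (-0.61) passed. Whether the members differ between roles was not tested.

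**Figure D3:**
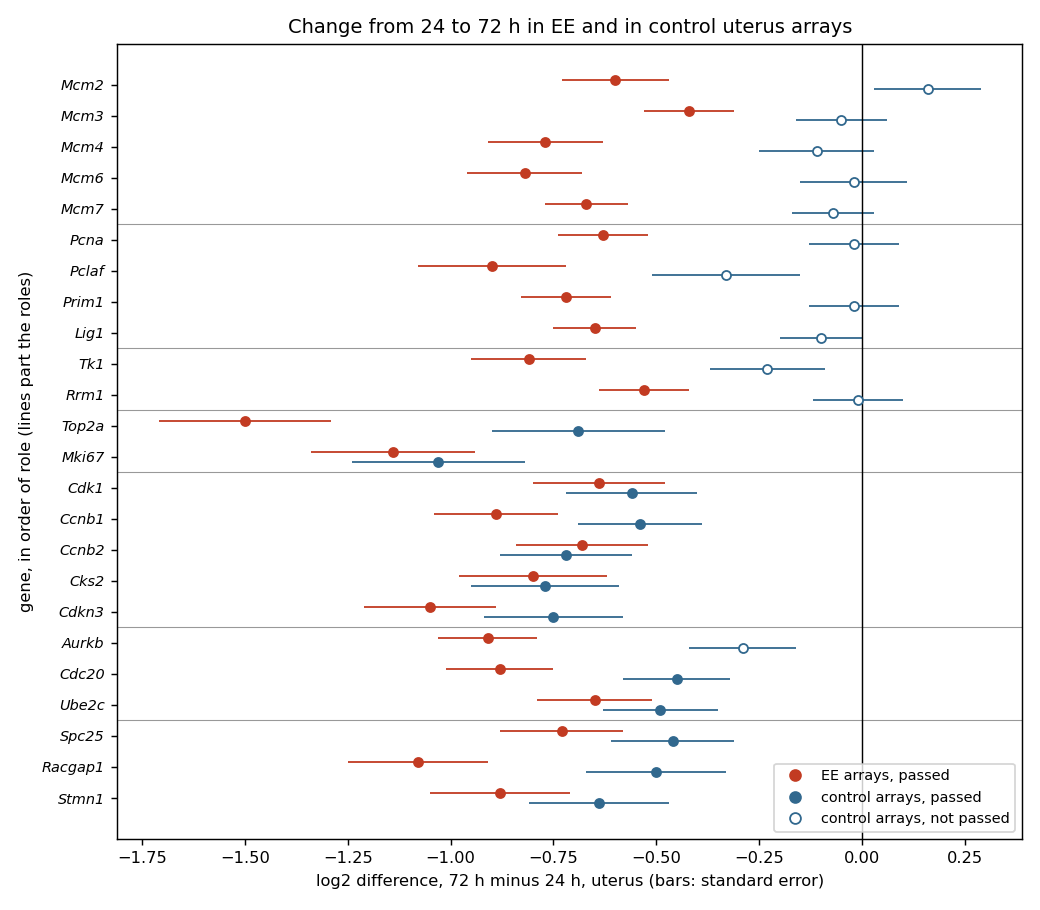
Change from 24 to 72 h on the log2(value + 30.4) scale in EE (red) and control (blue) uterus arrays for 24 members grouped by role, with standard errors as bars and filled symbols where the change passed. All red symbols are filled, with values down to -1.50 for Top2a, and no helicase, fork or nucleotide member has a filled blue symbol.

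Markers of cell types moved over the same times. The summed level of 5 uterine epithelium markers was 2720 to 4220 on EE and 1468 to 2043 on control arrays at 24 h (5 higher and 1 lower of 8 tested), and 4618 to 6866 against 1336 to 1747 at 72 h (8 higher of 9). The 5 macrophage markers in the sum read 961 to 2190 against 1021 to 1302 at 24 h (2 higher and 2 lower of 6) and 3247 to 5573 against 1052 to 1469 at 72 h (5 higher of 5). Endothelial markers were lower at 24 h in 4 of 4, with sums over 3 of them of 266 to 328 against 393 to 552, and stroma markers in 3 of 8. Smooth muscle markers gave 3 higher and 2 lower of 8 at 24 h. Of the lymphocyte markers Ptprc, the leukocyte antigen CD45, could be tested. It did not pass at 24 h and was higher at 28, 48 and 72 h by 0.27, 0.82 and 0.78. Of the eosinophil and neutrophil markers none could be tested at 24 h. Hbb, a globin of red blood cells, was lower at 24, 48 and 72 h (-0.88, -0.92 and -0.74). The Actb 3′ to 5′ log2 difference was 0.15 to 0.61 on EE and 0.47 to 0.79 on control arrays at 24 h, and 0.08 to 0.26 against 0.33 to 0.52 at 28 h. Their part in the members' differences was not tested.

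Within a uterus group, arrays high in one member were high in others. Deviations from the group means over all 70 arrays correlated with a median r of 0.78 (0.60 to 0.87) over 21 pairs of 7 mitotic members, 0.57 (0.17 to 0.84) over 55 pairs of 11 replication members, and 0.51 over the 77 mixed pairs. The median over all pairs of 5546 genes was 0.003. These pairs share arrays, and an array's RNA quality and cell make-up enter every gene on it. In pituitary the medians were 0.19, 0.08 and 0.08 over 30 arrays.

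In the pituitary gland few members passed, all of them from 24 h on and all higher. At 4 and 8 h 0 of 24 passed in limma, with 3 at an unadjusted p under 0.05 at each time, against 1.49% and 3.56% of all genes. The count at 4 h was 1 without EE array 20, for Mcm6 (0.54). At 24 h 1 of 24 was higher (0.0292% of all genes), with 10 at an unadjusted p under 0.05 and a median of 0.24 against 0 over all genes. At 48 h it was 5 of 25 (0.219% of all genes), with 14 at an unadjusted p under 0.05 and a median of 0.27, and at 72 h 3 of 25 (1.76% of all genes), with 11 and a median of 0.23.

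Pclaf was the member that passed at 24 h. It read 150, 133 and 158 with EE and 70.6, 77 and 103 in controls at 24 h, and 182, 193 and 220 against 126, 117 and 118 at 48 h. Every EE array was above every control array at both times, with differences of 0.65 ± 0.12 (adjusted p = 0.0209) and 0.60 ± 0.12 (adjusted p = 0.0112). The call at 24 h was lost without EE array 43 or 46 or control array 38 or 40 (0.57 to 0.64), and the count was 2 without EE array 44. That at 48 h was lost without EE array 69 or 71 or control array 64 or 66 (0.53 to 0.62).

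Top2a, Spc25, Tk1 and Ccnb1 passed at 48 h beside Pclaf. Top2a read 104, 99.1 and 117 with EE and 72.9, 51.5 and 56.1 in controls (0.61 ± 0.11, adjusted p = 0.00592), and Spc25 99.4, 117 and 103 against 67, 63.6 and 60.8 (0.54 ± 0.10, adjusted p = 0.0112). Tk1 read 107, 100 and 97.5 against 63.3, 63.4 and 68.4 (0.47 ± 0.09, adjusted p = 0.0104), and Ccnb1 129, 124 and 118 against 82, 70.7 and 77.8 (0.53 ± 0.10, adjusted p = 0.0112). The groups of all 4 were fully apart, with the same limit as for Pclaf. The count of 5 was 0 without control array 64, when Pclaf, Tk1, Top2a, Ccnb1 and Spc25 had differences of 0.46 to 0.58 and adjusted p of 0.0614 to 0.0795, 2 without EE array 69 or control array 66, and 3 without EE array 68. The second probe set of Top2a differed by 0.77 (adjusted p = 0.00505).

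At 72 h Ccnb2 read 98.8, 110 and 89.4 against 67, 58.5 and 65.7 (0.46 ± 0.10, adjusted p = 0.00781), and Cks2 205, 178 and 171 against 127, 112 and 112 (0.55 ± 0.15, adjusted p = 0.0381). Top2a read 99.0, 89.1 and 99.9 against 64.4, 75.5 and 60.4 (0.38 ± 0.11, adjusted p = 0.0498). Again no EE array fell to the control range. The count was 1 without EE array 81, 82 or 83 or control array 76. Without EE array 82 Ccnb2, Cks2 and Top2a were all lost (differences of 0.40, 0.57 and 0.42), and Lig1 passed instead (0.39). Without control array 73 Top2a and Cks2 were lost and Ccnb1 passed (0.43), and without control array 75 Cks2 was lost (0.52). Cdc20 had values on all EE and no control arrays at 48 h (102, 96.3 and 114; 0.332% of all genes) and at 72 h (110, 86.2 and 116; 0.31%), and Mcm5 at 24 h (46.5, 41.1 and 59; 0.21%).

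**Figure D4:**
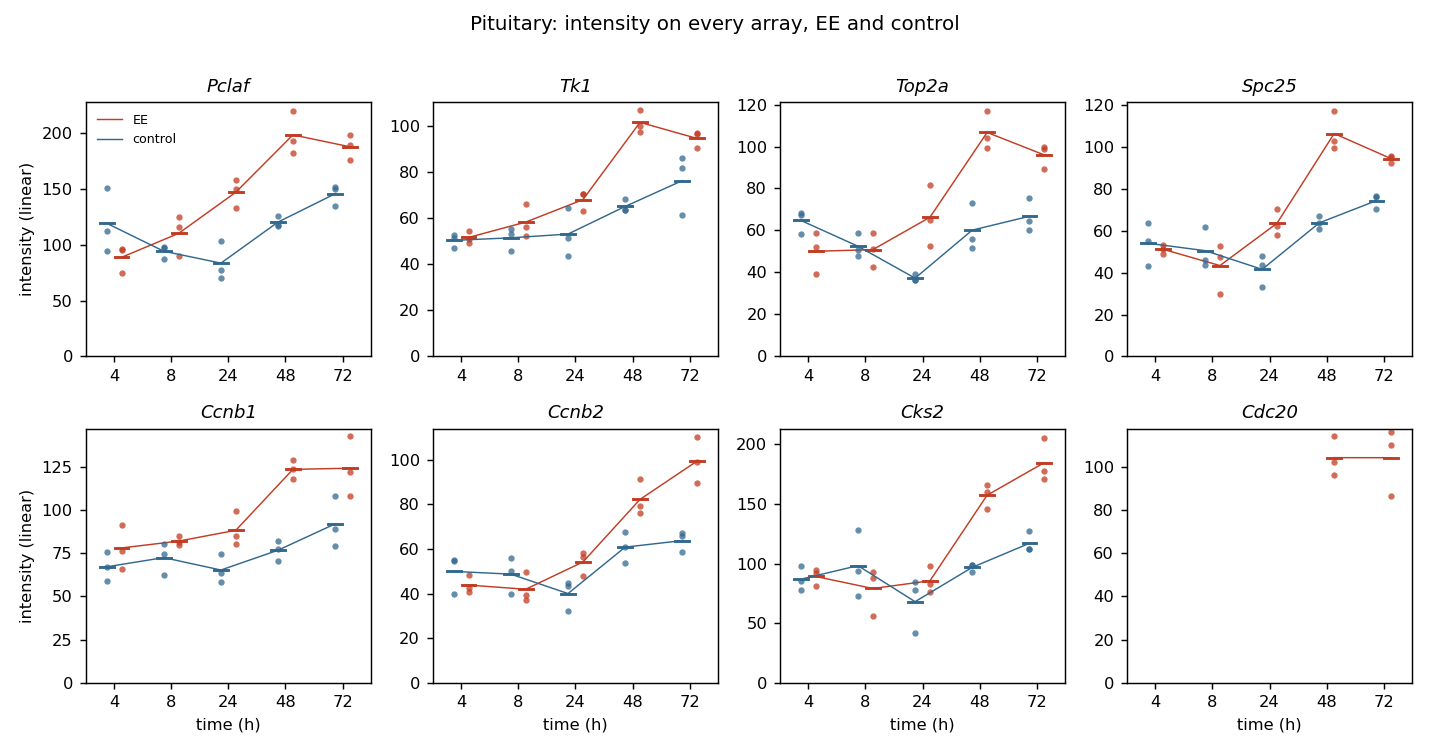
Levels of 8 members in pituitary gland (linear intensity, vertical axes starting at 0) at 4 to 72 h, with the times evenly spaced and so not to scale. Each point is 1 of 3 arrays, short bars are means and lines join the means. EE arrays of Pclaf lie above all control arrays at 24 and 48 h, and Cdc20 has values only on EE arrays at 48 and 72 h.

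Control levels changed with time in pituitary too. The F test across control times passed in 7 of 24 members (1.61% of all genes): Tk1, Top2a, Mki67, Cdk1, Cdkn3, Spc25 and Pclaf. Control arrays of Spc25 read 47.8, 33.4 and 43.6 at 24 h and 76.8, 76.1 and 70.4 at 72 h, and those of Pclaf rose from 70.6, 77 and 103 to 150, 135 and 152. The 72 h controls of both lay above all 24 h controls, and in Pclaf they reached the EE level of 24 h. The count was 0 without control array 73, 1 without 76 and 3 without 75 at 72 h, and 4 without control array 40 at 24 h. The EE effect differed between times in Top2a, Ccnb2, Spc25 and Pclaf (4 of 24, against 1.1% of all genes), a count that was 2 without any of 18 of the 30 arrays. Of 4 gonadotroph markers, Gnrhr was lower at 24, 48 and 72 h (-0.86, -1.22 and -1.57), and the sum at 48 h was 7763 to 9246 on EE and 10950 to 12755 on control arrays. Of 2 thyrotroph markers, Trhr was higher at 8 and 72 h (0.72 and 0.96). Of 4 lactotroph and somatotroph markers none passed at 24, 48 or 72 h. Their part in the members' differences was not tested.

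From 24 h on the EE effect was larger in uterus than in pituitary for most members. The EE effect in uterus exceeded that in pituitary in 23 of 23 members at 24 h (17.8% of all genes), from 0.58 for Mcm4 to 2.00 for Cks2, in 20 of 23 at 48 h (15%) and in 18 of 23 at 72 h (14.5%). At 8 h it was lower in 4 of 24 (25.5% of all genes), Stmn1 (-0.85), Top2a (-0.78), Cdkn3 (-0.69) and Racgap1 (-0.64), and at 4 h higher in Pcna alone (0.48, 1 of 24, against 15.2%). The 8 h count was 2 without EE array 34 or control array 30 of uterus, and 8, 9 and 10 without EE array 33, control array 27 and control array 29. The 4 h count was 0 without control array 16 of pituitary.

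Untreated, the same probe sets did not lie uniformly higher in either tissue. Averaged over the shared control times, 11 of 23 members were higher in uterus (38.9% of all genes) and 6 were lower (47.6%). Top2a and Cdkn3 were higher by 0.53 and 0.44, and Stmn1 and Prim1 were lower (-1.53 and -0.66). The tissues were set on a common scale only through the deposited values. The Actb 3′ to 5′ log2 difference was 0.07 to 1.09 over uterus arrays and 1.23 to 1.86 over pituitary arrays. In these tissue comparisons its part cannot be told apart from that of tissue.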

How the data were processed

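Total RNA (5 µg, RNeasy Mini kit, per the labels) carried a biotin label and was read on RAE230A arrays, 70 of uterus and 30 of pituitary gland. The deposited values are linear intensities per probe set. How the authors summarised and scaled them, and why cells are blank, is not given in the sources used here. Columns were matched to samples by title, and groups came from the labels. Of 15923 probe sets, 12783 belonged to a single gene and 312 to several genes, and only the former were used. For the 1868 genes with several, the set with the highest total was taken, which gave 9030 genes.

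Values were changed to log2(value + 30.4), the added constant being the 10th percentile of all values, and blanks were left out. Group means and pooled variances were fitted per tissue, and variances were moderated with limma 3.58.1 (squeezeVar) under R 4.3.3. Comparisons between tissues used all 100 arrays, taken as independent. Tests were two-sided, adjusted by the Benjamini-Hochberg method over all genes tested in a comparison, with a pass at an adjusted p under 0.05. Differences across times used F statistics on the moderated variances. The fit was tested on simulated data. Tables and promoter searches were made with Python 3.11.15, pandas 2.3.3 and RefSeq sequences of GRCr8.

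The members, roles and gene lists were chosen with earlier results of these data known. All 37 listed genes could be named. Values on every array were shown by rule for the member of each role with the smallest adjusted p at 24 h in uterus, for Mki67, Pcna and Cdk1, and for members that went against their role, and were added for the members that passed in pituitary or that mark a limit. Other replication and mitosis genes were named where their adjusted p at 24 h was among the 3 smallest of a list. Alternatives covered the constant, centring, quantile normalization, blanks, filters on low or missing values, the choice of probe set, the groups in the fit, the replicate number as a block and leaving out each array.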

Additional observations from a re-analysis of the deposited data

Results flagged for a closer look

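Among 126 groups of 5 uterus arrays of the 9 members with values shown at every time, 11 held an array far from the others. For a single group chance alone gives about 1 in 20. The 9 members share arrays and vary together, so the 126 groups are not independent and the count cannot be set against that rate. EE array 34 at 8 h read 102 for Pclaf, below the other 4 arrays (148 to 152). Control array 4 at 2 h was high for Tk1 (157, others 66 to 82.3) and for Top2a (236, others 95.0 to 131). Control array 17 at 4 h was low for Top2a (91.5, others 199 to 230) and for Ube2c (113, others 174 to 193). At 24 h, EE array 43 was high for Top2a (572, others 454 to 485), EE array 44 low for Ube2c (381, others 459 to 490), EE array 45 low for Mki67 (302, others 363 to 388) and control array 37 high for Pcna (419, others 310 to 332). At 28 h, control array 50 was high for Ube2c (133, others 91.7 to 103) and EE array 57 high for Pcna (923, others 670 to 727).

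The EE effect differed between uterus times in 24 of 24 members and between pituitary times in 4 of 24. Between the tissues it differed in 1 member at 4 h, 4 at 8 h, 23 at 24 h, 20 at 48 h and 18 at 72 h.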

How the results depend on the processing

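Of 303 tests of a member's EE effect, 119 passed. Of these, 111 passed under every other setting that tested them, and 101 also with each array left out. No direction reversed among calls. Members lower in uterus at 4 h numbered 2, and 1 with arrays centred on their medians, with a constant of 100 or with quantile normalization. Members higher at 8 h numbered 2, but 4 with centring and 1 with blanks filled, a constant of 100 or only genes with a value on every array. In pituitary the 1 call at 24 h became 2 with centring or no constant and 0 with blanks filled or with the 2 groups alone, and the 3 at 72 h became 1 with no constant. Restricting to genes with a value on every array, which tests fewer members, gave 7 lower at 8 h, 17 for EE arrays from 8 to 24 h, 4 from 24 to 28 h, 5 from 28 to 48 h, 0 from 48 to 72 h and 18 from 24 to 72 h. For control arrays it gave 1 from 28 to 48 h and 7 from 24 to 72 h, and between tissues 14, 11 and 10 at 24, 48 and 72 h and 11 for controls. EE arrays from 48 to 72 h gave 0 with centring and 1 with no constant, and control arrays from 28 to 48 h gave 0 with a constant of 100. The EE effect changed in 2 members from 48 to 72 h with blanks filled, in 18 (blanks filled) or 17 (constant of 100) from 24 to 72 h, and between pituitary times in 2 with no constant. For these the cause was not tested. Tyms at 28 h (0.45) was lost with blanks filled (0.26), and Aurkb and Tk1 at 8 h with centring (-0.23 and -0.28).

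Leaving out 1 array gave 1 to 9 lower members at 4 h and 0 to 4 higher at 8 h in uterus, and 0 to 1, 0 to 2, 0 to 5 and 1 to 2 in pituitary at 4, 24, 48 and 72 h. For control arrays it gave 4 to 15 from 8 to 24 h and 0 to 3 from 28 to 48 h, and for EE arrays 4 to 11 from 24 to 28 h, 7 to 12 from 28 to 48 h and 0 to 4 from 48 to 72 h. The EE effect changed in 0 to 3 members from 28 to 48 h and in 2 to 5 between pituitary times. Pituitary control times gave 0 to 7, and tissues 0 to 1 at 4 h and 2 to 10 at 8 h.

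EE and control groups share no replicate number, so only tissues could be paired. Of 27 same-numbered pairs, 8 had a correlation over 0.1 (median 0.0705) and 13 correlated best with their own number, so the numbers were not taken as pairs. With the replicate number as a block, tissue differences passed in 1, 6, 23, 20 and 18 members at 4, 8, 24, 48 and 72 h and in 17 for controls.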
